A study of Mus musculus with 22 samples.

Results

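The genes described here are 39 markers of endothelium, the cell layer that lines blood and lymph vessels, read in libraries that were made from lung epithelium. They were listed by gene symbol, and comprise 11 junction and surface proteins, 5 growth factor receptors, 6 transcription factors, 3 secreted or intracellular proteins, 5 capillary genes, 3 arterial genes, 2 large-vessel genes and 4 lymphatic genes. All 39 are among the 15958 genes of the 6-month tables, and 22 of them are among the 13750 genes of the embryonic tables. The other 17 (Car4, Cldn5, Eng, Erg, Fli1, Flt4, Gpihbp1, Icam2, Mmrn1, Nos3, Plvap, Robo4, Sox17, Sox18, Sox7, Tal1 and Tie1) were not analysed here at the embryonic age.

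The study asked how a noncoding RNA gene, NANCI, and its neighbour Nkx2.1, the gene of a transcription factor of lung epithelium, together maintain the lung. Mouse lung epithelial RNA was sequenced in embryos shortly before birth (E18.5) and in adults of 6 months. Double animals carried 1 copy each of the NANCI-CreERT2:RFP and Nkx2.1-GFP alleles, Nkx animals carried 1 copy of Nkx2.1-GFP, NANCI animals were homozygous for NANCI-CreERT2:RFP, and WT animals were NANCI-+/+. At 6 months there were 4 Double, 3 Nkx and 3 WT libraries, and at E18.5 there were 3 libraries each of Double, Nkx, NANCI and WT. The allele names denote a tamoxifen-inducible Cre recombinase with a red fluorescent protein and a green fluorescent protein. The sources used here do not state which part of either gene the alleles replace or whether tamoxifen was given. For E18.5, cells carrying the epithelial surface protein EpCAM were pulled down magnetically, with no gate against other cells named. The 6-month cells were collected by flow cytometry as EpCAM-positive cells negative for CD45, a leukocyte protein, and for CD31, the endothelial protein that Pecam1 encodes. Age and enrichment differ together, so genotypes were compared within an age only. Nothing in the labels ties each replicate to its own animal, and the p-values therefore rest on a spread between libraries that may be partly technical.

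Endothelial cells form a thin sheet held together by adherens and tight junctions, and in the alveoli they lie against the epithelium across a shared basement membrane. Vascular endothelial growth factor, much of it made by alveolar epithelium, acts on endothelial receptors of the Kdr and Flt1 family, and angiopoietins act on Tek. ETS and SOX transcription factors switch on the endothelial genes, Notch signals mark arteries, and Prox1 sets lymphatic identity.

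The values are quantile-normalized log2 expression, 1 value per gene and library, and fold changes are differences of their group means. The median over genes was 9.58 to 9.59 in the 6-month libraries and 9.9 in those of E18.5. Read totals are unknown, but a 6-month library had 128 to 382 distinct values at or below its median and an E18.5 library 209 to 284, which shows how finely low genes are resolved. None of the 39 genes lay at its library's lowest value at either age except Mmrn1 in Double replicate 3 at 6 months. Values of different genes are not compared with each other, since the files do not say whether they account for gene length. By sex-linked transcripts, all 4 Double libraries at 6 months had the female pattern, as did 2 of 3 Nkx and 1 of 3 WT libraries. At E18.5, 2 of 3 Double, 2 of 3 Nkx, 0 of 3 NANCI and 2 of 3 WT libraries had it.

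At 6 months the endothelial genes were lower in Double than in WT libraries almost throughout. In limma, with Benjamini-Hochberg adjustment over all genes and a threshold of 0.05, 38 of the 39 fell, 0 rose and 1, Prox1, did not pass. Of all 15958 genes, 36.3% passed in this comparison, 17.9% as lower and 18.4% as higher. For the same 38 genes every Double library lay below every WT library, which was so for 18.9% of all genes. The median log2 fold change of the 39 genes was −2.93, with a range of −3.84 to 0, beside a median of 0.06 over all genes; 200 genes, 1.25% of those tested, lay at or below −2.93. In bulk RNA, fewer endothelial cells in the sorted sample, less endothelial RNA per cell and lower expression of these genes by other cells cannot be told apart. The libraries came from cells sorted as CD31-negative, so they do not measure the endothelium of the whole lung. With the female-pattern libraries alone, which leaves 1 WT library whose spread is taken from the other groups, 36 of 39 still fell, with a median of −3.63.

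The 11 junction and surface genes all fell in Double against WT, with a median of −2.99. Pecam1 (ENSMUSG00000020717; chromosome 11, 106654217 to 106750628, minus strand of GRCm38) encodes the CD31 protein on which the 6-month gate was set. Its log2 expression was 9.4, 10.85, 9.27 and 10.13 in Double libraries, 12.87, 12.38 and 11.78 in Nkx libraries, and 12.2, 12.77 and 13.52 in WT libraries. The Double libraries were the lowest 4 of the 10, and the Nkx and WT libraries overlapped. The difference from WT was −2.92 ± 0.4 (SE here and below; limma, adjusted p = 0.000236), or 7.56-fold lower.

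Cdh5 (ENSMUSG00000031871; chromosome 8, 104101625 to 104144511, plus strand) encodes VE-cadherin, the adhesion protein of endothelial adherens junctions. It measured 9.21, 10.25, 9.31 and 10.02 in Double libraries, 12.88, 12.28 and 11.8 in Nkx libraries, and 12.36, 13.08 and 14 in WT libraries. The lowest Nkx value lay above the highest Double value, and the lowest WT value above that Nkx value. Relative to WT, Cdh5 fell 10.9-fold in Double (−3.44 ± 0.38, adjusted p = 5.47e-05). Cldn5 (ENSMUSG00000041378; chromosome 16, 18776847 to 18778262, plus strand), the gene of the main claudin of endothelial tight junctions, measured 9.06, 9.92, 8.98 and 9.51 in Double libraries, 12.53, 12.16 and 11.51 in Nkx libraries, and 12.2, 12.44 and 13.41 in WT libraries. The 4 Double values stayed under 10 while all others exceeded 11.5. It fell 9.93-fold against WT (−3.31 ± 0.32, adjusted p = 2.61e-05).

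Eng encodes endoglin, a co-receptor for TGF-beta family ligands that endothelium carries at high level. It measured 7.9, 9.05, 8.38 and 9.12 in Double libraries, 12.14, 11.55 and 10.77 in Nkx libraries, and 11.57, 12.31 and 13.21 in WT libraries. No Double value reached the lowest Nkx or WT value. The fall against WT was 13.4-fold (−3.75 ± 0.42, adjusted p = 5.74e-05). Ramp2, whose product makes a receptor respond to the vascular peptide adrenomedullin, fell by a like amount (−3.41 ± 0.33, adjusted p = 2.68e-05), as did Robo4, an endothelial guidance receptor (−3.29 ± 0.44, adjusted p = 0.000197). The remaining surface genes fell by less. Cd93, a surface glycoprotein also found on myeloid cells, differed by −2.99 ± 0.37. Icam2, a ligand for leukocyte integrins, differed by −2.74 ± 0.31, and Esam, an immunoglobulin-domain adhesion protein, by −2.41 ± 0.23. The sialomucins Podxl and Emcn, which coat the luminal surface, differed by −2.3 ± 0.33 and −2.02 ± 0.39; Emcn had the smallest fall of the 11.

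**Figure D1:**
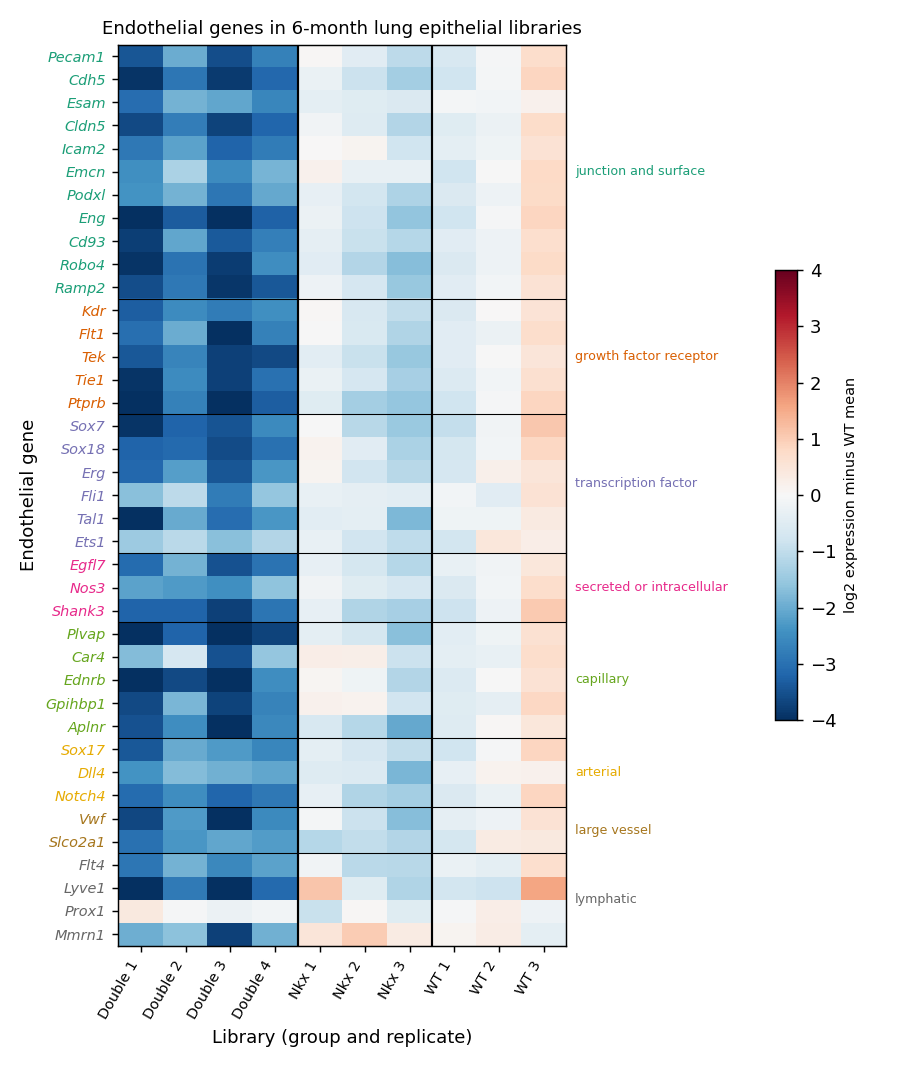
Log2 expression of the 39 endothelial genes (rows, grouped by role) in each 6-month library (columns), drawn as the difference from the WT mean of that gene. The 4 Double columns are blue for 38 of the 39 rows, Prox1 stays pale in every column, and within WT replicate 3 stands highest in 36 rows.

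Promoter sequence is shown for Eng and Cldn5, a pair chosen after their values were seen, because both fell strongly while their promoters differ in the short element searched. The element is AGGAAG or CGGAAG on either strand, which holds the GGAA core that ETS factors such as Erg, Fli1 and Ets1 bind. Each window holds the 250 bases before the start site on the plus strand, from RefSeq on GRCm38.p6, with matches in capitals. Eng (chr2:32646345-32646594) has 2 matches and Cldn5 (chr16:18776597-18776846) has 0.
Eng: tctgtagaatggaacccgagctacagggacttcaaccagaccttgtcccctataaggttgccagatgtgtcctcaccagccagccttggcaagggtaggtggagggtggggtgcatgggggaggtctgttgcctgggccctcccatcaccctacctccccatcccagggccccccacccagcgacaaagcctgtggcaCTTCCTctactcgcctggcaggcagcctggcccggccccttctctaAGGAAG
Cldn5: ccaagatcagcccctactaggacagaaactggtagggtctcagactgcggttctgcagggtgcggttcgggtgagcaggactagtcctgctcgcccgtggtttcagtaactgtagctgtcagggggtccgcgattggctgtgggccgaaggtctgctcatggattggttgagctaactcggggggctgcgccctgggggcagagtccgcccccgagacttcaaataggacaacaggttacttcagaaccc
Of the 39 genes, 20 had a promoter entry, with 26 start sites in all. The element was in 11 of those 26 windows (42.3%), beside 39.2% of all 32851 windows in the table. Both genes fell in Double libraries, with and without a match in this window.

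All 5 growth factor receptor genes fell in Double against WT, with a median of −3.28. Kdr (ENSMUSG00000062960; chromosome 5, 75932827 to 75978458, minus strand), the main signalling receptor for vascular endothelial growth factor, measured 8.73, 9.51, 9.22 and 9.58 in Double libraries, 12.06, 11.39 and 11.03 in Nkx libraries, and 11.43, 12.05 and 12.58 in WT libraries. The Double libraries formed a separate low set, with Kdr below 10 in each. Its fall against WT was 6.77-fold (−2.76 ± 0.3, adjusted p = 5.15e-05). Tek, the angiopoietin receptor, measured 8.35, 9.09, 7.99 and 8.14 in Double libraries, 11.32, 10.86 and 10.23 in Nkx libraries, and 11.27, 11.71 and 12.23 in WT libraries. Here too the highest Double value was more than 1 log2 unit below the lowest value of any other library. Tek fell 10.2-fold against WT (−3.34 ± 0.31, adjusted p = 2.1e-05). Tie1, the partner receptor of Tek, fell by 3.28 ± 0.38 on the log2 scale. Ptprb, the endothelial phosphatase that opposes Tek, had the largest fall of the 5 (−3.65 ± 0.46, adjusted p = 0.000124). Flt1, which binds vascular endothelial growth factor and limits its action on Kdr, differed by −2.93 ± 0.44 (adjusted p = 0.000387).

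The 6 transcription factor genes also all fell, with a median of −2.87. Sox18, a SOX factor of developing vessels, measured 6.52, 6.61, 6.14 and 6.75 in Double libraries, 9.85, 9.26 and 8.45 in Nkx libraries, and 9.02, 9.6 and 10.55 in WT libraries. Its 4 Double values lay within 1 log2 unit of each other and below all Nkx and WT values. The fall was 9.29-fold (−3.22 ± 0.38, adjusted p = 8.42e-05), and its relative Sox7 fell as far (−3.29 ± 0.49, adjusted p = 0.000419). Erg, an ETS factor that maintains endothelial identity, differed by −2.78 ± 0.39, and Tal1, a factor of blood and endothelial progenitors, by −2.97 ± 0.58. Fli1 and Ets1 are ETS factors that leukocytes also express. Fli1 fell 3.4-fold (−1.77 ± 0.39, adjusted p = 0.00425). Ets1 measured 9.42, 9.8, 9.21 and 9.71 in Double libraries, 10.57, 10.11 and 9.84 in Nkx libraries, and 10.15, 11.31 and 11.15 in WT libraries. Its groups were close: the highest Double value was just under the lowest Nkx value. Ets1 had the smallest fall of the 38 genes that passed (2.52-fold, −1.33 ± 0.27, adjusted p = 0.00278).

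Egfl7, a protein that endothelium secretes into its matrix, fell 7.27-fold (−2.86 ± 0.34, adjusted p = 8.44e-05). Shank3, a scaffold protein best known from synapses, fell 9.7-fold (−3.28 ± 0.39, adjusted p = 9e-05). Nos3, the endothelial nitric oxide synthase that relaxes vessels, fell 4.32-fold (−2.11 ± 0.35, adjusted p = 0.000755). The median of these 3 was −2.86.

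The 5 capillary genes fell with a median of −3.23. Plvap, which builds the diaphragms of capillary openings, had the largest fall of the 39 genes in Double against WT. It measured 8.18, 9.39, 8.58 and 8.9 in Double libraries, 12.21, 11.89 and 10.95 in Nkx libraries, and 12.17, 12.42 and 13.23 in WT libraries. Every Double value lay below 9.5 and every other value above 10.9. Plvap averaged 8.76 ± 0.51 in Double and 12.61 ± 0.55 in WT libraries (SD, n = 4 and 3), and was 14.3-fold lower in Double (−3.84 ± 0.35, adjusted p = 1.68e-05). Ednrb, the endothelin receptor that marks the gas-exchange capillary cells of mouse lung, measured 4.94, 5.99, 5.39 and 7.09 in Double libraries, 9.66, 9.4 and 8.42 in Nkx libraries, and 9.04, 9.57 and 10.15 in WT libraries. Double replicate 4 was the highest of its group and still below every Nkx and WT library. Ednrb fell 13.3-fold (−3.74 ± 0.48, adjusted p = 0.000155).

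Aplnr, the apelin receptor of the other lung capillary cells, fell 9.4-fold (−3.23 ± 0.49, adjusted p = 0.000432). Gpihbp1, which anchors lipoprotein lipase on the capillary wall, fell 7.76-fold (−2.96 ± 0.46, adjusted p = 0.000563). Car4, a membrane carbonic anhydrase of gas-exchange capillaries that some epithelia also make, measured 8.71, 9.8, 6.96 and 8.91 in Double libraries, 10.73, 10.69 and 9.59 in Nkx libraries, and 10.06, 10.16 and 11.16 in WT libraries. Its Double libraries spread over almost 3 log2 units, and replicate 2 lay above the lowest Nkx library. Car4 had the largest adjusted p of the 38 genes that passed (−1.86 ± 0.55, adjusted p = 0.0208).

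The 3 arterial genes had a median of −2.57. Sox17, a SOX factor of arteries that is also found in airway epithelium, fell 5.95-fold (−2.57 ± 0.39, adjusted p = 0.000471). Notch4, an endothelial Notch receptor, fell 7.47-fold (−2.9 ± 0.35, adjusted p = 8.92e-05). Dll4, the arterial Notch ligand, measured 7.5, 8.18, 7.99 and 7.83 in Double libraries, 9.37, 9.36 and 8.07 in Nkx libraries, and 9.57, 10.05 and 10.08 in WT libraries. Nkx replicate 3 lay inside the range of the Double libraries, while the other Nkx libraries lay above it. Dll4 fell 4.07-fold against WT (−2.02 ± 0.31, adjusted p = 0.000453).

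Vwf and Slco2a1 stand for larger vessels, and Slco2a1 was also listed as known in epithelium. Vwf, the clotting protein that platelets also carry, fell 9.29-fold (−3.22 ± 0.5, adjusted p = 0.000508). Slco2a1, a prostaglandin transporter, measured 10.04, 10.71, 10.96 and 10.79 in Double libraries, 11.87, 12.04 and 11.84 in Nkx libraries, and 12.31, 13.35 and 13.41 in WT libraries. The 3 groups did not overlap, with Double lowest, Nkx next and WT highest. The Double fall was 5.29-fold (−2.4 ± 0.27, adjusted p = 5.53e-05).

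The 4 lymphatic genes were the least uniform group, with a median of −2.35. Lyve1, a hyaluronan receptor of lymphatic vessels that some macrophages also carry, measured 6.28, 8.14, 6.73 and 7.84 in Double libraries, 12.06, 10.47 and 9.75 in Nkx libraries, and 10.24, 10.12 and 12.53 in WT libraries. Its Double values were all below 8.2 and all others above 9.7. Lyve1 fell 13.1-fold (−3.71 ± 0.68, adjusted p = 0.00145). Flt4, the receptor for the lymphatic growth factor Vegfc, fell 5.22-fold (−2.39 ± 0.35, adjusted p = 0.000374). Mmrn1, an adhesive protein of lymphatic vessels and platelets, measured 4.63, 4.95, 2.85 and 4.67 in Double libraries, 7.06, 7.6 and 6.91 in Nkx libraries, and 6.68, 6.87 and 6.2 in WT libraries. The Nkx libraries were the highest and the Double libraries the lowest, with no overlap. Mmrn1 fell 4.96-fold against WT (−2.31 ± 0.51, adjusted p = 0.00475).

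Prox1, the transcription factor that sets lymphatic identity and that some epithelial and nerve cells also express, was the exception. It measured 6.02, 5.57, 5.39 and 5.52 in Double libraries, 4.73, 5.67 and 5.15 in Nkx libraries, and 5.57, 5.89 and 5.41 in WT libraries. The 3 groups overlapped. The difference between Double and WT was 0 ± 0.4 with a 95% interval of −0.88 to 0.88 (limma, adjusted p = 0.999).

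Vessel types were also set against each other within a library, by subtracting their mean log2 expression, with no test. The size of such a difference depends on the genes in each list, so only its shift between libraries can be read. Capillary minus arterial genes gave −1.17 to 0.25 for Double libraries, 0.44 to 0.82 for Nkx and 0.24 to 0.44 for WT. The −1.17 was Double replicate 3 alone, and the other Double libraries gave −0.29, 0.07 and 0.25. Double and Nkx did not overlap, while Double and WT met at their edge. Capillary minus lymphatic genes gave 0.99 to 1.54 for Double libraries, 1.62 to 2.08 for Nkx and 2.06 to 2.52 for WT. Without Prox1 the same difference was 1.05 to 1.28 for Double libraries, 0.85 to 1.33 for Nkx and 1.31 to 1.64 for WT, so Double then lay inside the Nkx range. Arterial minus lymphatic genes gave 1.27 to 2.2 for Double libraries, 1.18 to 1.4 for Nkx and 1.62 to 2.17 for WT, with all groups overlapping Double. The 2.2 was again Double replicate 3, and the other Double libraries gave 1.28, 1.47 and 1.27, below the WT range.

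**Figure D2:**
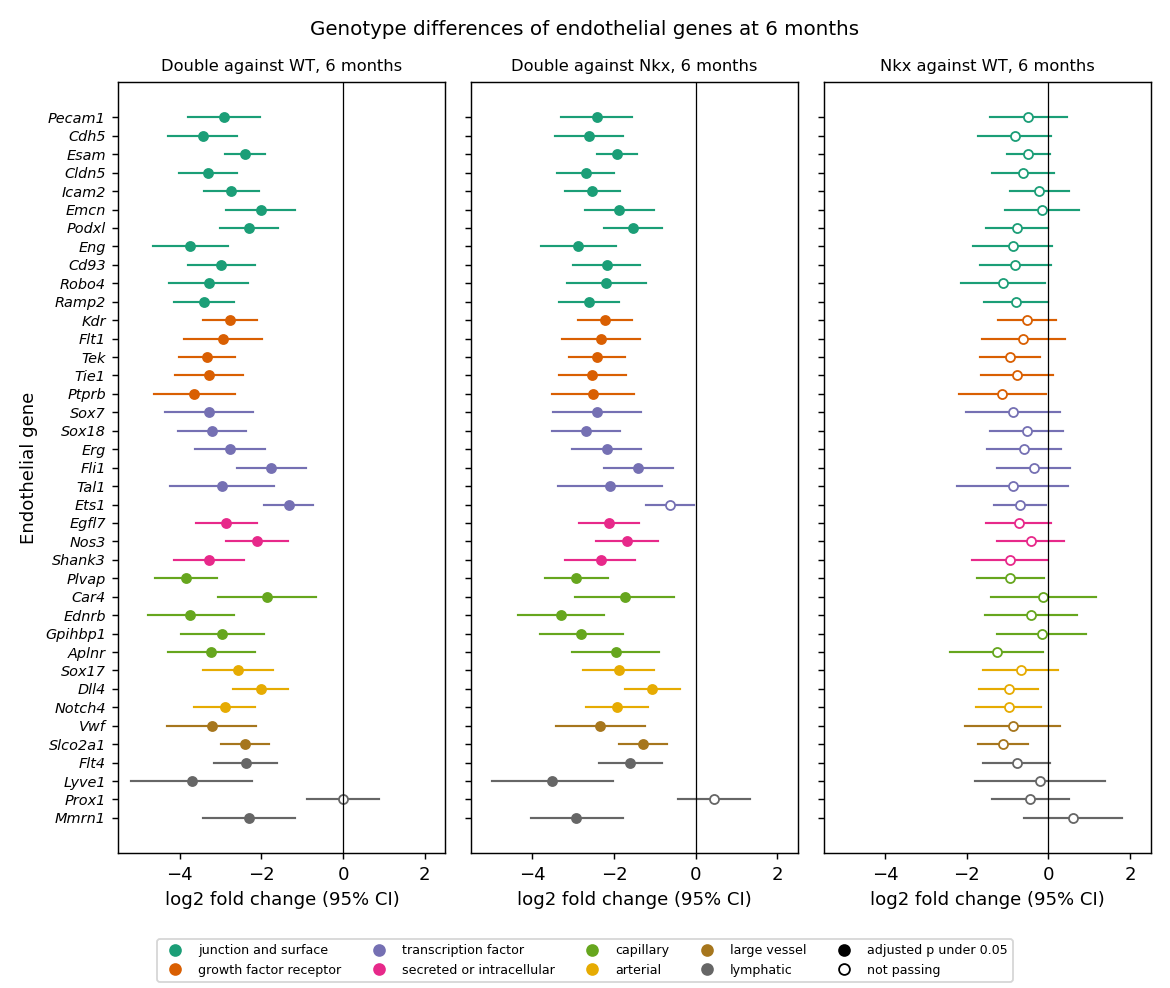
Log2 fold change (x axis, with 95% interval) of each endothelial gene (y axis, coloured by role) in Double against WT, Double against Nkx and Nkx against WT at 6 months; filled points passed an adjusted p of 0.05. In the left panel 38 of 39 points are filled and negative, in the middle panel 37, and in the right panel 0.

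Double was also set against Nkx, which differ by the NANCI-CreERT2:RFP copy. In limma, 37 of the 39 genes fell, 0 rose and 2 did not pass, while 21.7% of all genes passed, 11.5% as lower and 10.2% as higher. The groups did not overlap for 36 of the 39, as for 15.7% of all genes in that direction. The median was −2.23, beside 0.03 over all genes. By role, the medians were −2.43 for junction and surface, −2.41 for receptor, −2.14 for transcription factor, −2.13 for secreted or intracellular, −2.8 for capillary, −1.89 for arterial, −1.82 for large-vessel and −2.26 for lymphatic genes.

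The largest falls against Nkx were those of Lyve1 (11.4-fold, −3.51 ± 0.68, adjusted p = 0.00396) and Ednrb (9.89-fold, −3.31 ± 0.48, adjusted p = 0.000863). Mmrn1 followed (−2.92 ± 0.51, adjusted p = 0.0024), with Plvap (−2.92 ± 0.35, adjusted p = 0.000319), Eng (−2.88 ± 0.42, adjusted p = 0.000841) and Gpihbp1 (−2.8 ± 0.46, adjusted p = 0.00181). The defining junction and receptor genes fell somewhat less. Cldn5 differed by −2.69 ± 0.32, Cdh5 by −2.62 ± 0.38, Pecam1 by −2.43 ± 0.4 and Kdr by −2.23 ± 0.3, with adjusted p-values of 0.000321, 0.000844, 0.00175 and 0.000578. Sox18, Ramp2, Icam2 and Tie1 differed by −2.68 ± 0.38, −2.62 ± 0.33, −2.53 ± 0.31 and −2.53 ± 0.38. At the other end, Slco2a1 differed by −1.29 ± 0.27 and Dll4 by −1.06 ± 0.31, both past the threshold. Ets1 (−0.64 ± 0.27, adjusted p = 0.12) and Prox1 (0.44 ± 0.4, adjusted p = 0.472) did not pass. With the female-pattern libraries alone, 4 Double against 2 Nkx, 36 of 39 fell and the median was −2.52.

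Nkx was set against WT to ask what 1 copy of Nkx2.1-GFP does at 6 months. In limma, 0 of the 39 genes passed in either direction, while 2.63% of all genes passed, 1.11% as lower and 1.52% as higher. An unadjusted p under 0.05 was reached by 12 of the 39, as by 21.9% of all genes. The log2 fold change was negative for 38 of 39, with a median of −0.73 beside 0.01 over all genes. That median was −0.4 without WT replicate 3 and −0.46 without Nkx replicate 3. Groups did not overlap for 6 genes with Nkx lower (Esam, Tal1, Egfl7, Aplnr, Dll4 and Slco2a1), as for 14.4% of all genes, and for 1, Mmrn1, with Nkx higher, as for 16.1%.

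Slco2a1 came nearest to the threshold in Nkx against WT (−1.11 ± 0.28, adjusted p = 0.0661). Dll4 (−0.97 ± 0.33, adjusted p = 0.132), Tek (−0.93 ± 0.34, adjusted p = 0.148), Notch4 (−0.97 ± 0.37, adjusted p = 0.164) and Plvap (−0.93 ± 0.37, adjusted p = 0.182) came next. Without WT replicate 1, Slco2a1 passed (−1.46, adjusted p = 0.0207) and was the sole gene of the 39 to do so. With each library re-centred on 14 epithelial genes, 5 passed, Slco2a1, Dll4, Tek and Notch4 among them. The mean of those epithelial genes was itself higher in Nkx (12.87 to 12.95) than in WT libraries (12.56 to 12.68). The re-centring therefore lowered every gene in Nkx against WT, and the median of all genes became −0.31. How many of all genes passed after it was not counted. With the sex pattern as a covariate, 1 passed, Plvap (−1.27, adjusted p = 0.0477). The difference was −0.49 ± 0.43 for Pecam1, −0.82 ± 0.41 for Cdh5, −0.53 ± 0.32 for Kdr and −0.62 ± 0.35 for Cldn5, with intervals of −1.43 to 0.45, −1.72 to 0.07, −1.23 to 0.18 and −1.38 to 0.14. These intervals include both no change and a fall of about 1 log2 unit or more. Mmrn1 differed by 0.61 ± 0.55.

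The mean over all 39 genes gave 7.41, 8.35, 7.32 and 8.07 in Double, 10.4, 9.98 and 9.43 in Nkx, and 10.07, 10.48 and 11.21 in WT libraries. Double stood apart, and Nkx and WT overlapped. The libraries of a group were shifted together. WT replicate 3 was the highest WT library for 36 of the 39 genes, Nkx replicate 1 the highest Nkx library for 34 and Nkx replicate 3 the lowest for 37, and Double replicate 2 the highest Double library for 29. WT replicate 3 was the sole female-pattern WT library and Nkx replicate 3 the sole male-pattern Nkx library, so sex pattern and single library cannot be told apart there. With sex pattern as a covariate, the median was −3.54 in Double against WT and −0.97 in Nkx against WT. The median SD within groups was 0.61 for these genes, beside 0.27 over all genes. After subtracting from each gene the mean of the other endothelial genes in the same library, it was 0.29, and smaller than before for 35 of the 39 genes. The exceptions were Esam, Slco2a1, Prox1 and Mmrn1.

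Of another 38 endothelial genes measured at 6 months, 29 fell and 2 rose in Double against WT, with a median of −2.66. The largest falls were those of Esm1, a secreted proteoglycan of tip cells (−3.95 ± 0.43, adjusted p = 5.06e-05), Clec14a, an endothelial lectin (−3.69 ± 0.36, adjusted p = 2.4e-05), the transcription factor Gata2 (−3.52 ± 0.39, adjusted p = 6.05e-05) and Arhgef15, an endothelial exchange factor (−3.48 ± 0.33, adjusted p = 2.36e-05). In Double against Nkx, 27 fell and 1 rose. In Nkx against WT, 1 fell, Esm1 (−1.94 ± 0.46, adjusted p = 0.049).

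Ligands that act on these receptors were read as well. Of 12 vascular ligand genes at 6 months, 7 fell and 0 rose in Double against WT. Vegfa averaged 13.59 ± 0.26 in Double and 13.78 ± 0.46 in WT libraries (SD, n = 4 and 3), a difference of −0.19 ± 0.24, adjusted p = 0.563. Angpt1, the ligand of Tek that mesenchymal cells make, fell (−3.31 ± 0.34, adjusted p = 3.41e-05). Cxcl12, a chemokine of stroma and endothelium (−2.39 ± 0.41, adjusted p = 0.00103), and Vegfc, the ligand of Flt4 (−2 ± 0.51, adjusted p = 0.00975), fell as well.

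Markers of other cell types moved with genotype at 6 months. Of 13 mesenchymal markers, 11 fell and 1 rose in Double against WT, with a median of −2.7. Their mean per library was 6.83 to 7.94 for Double libraries, 8.65 to 9.36 for Nkx and 9.38 to 10.11 for WT, and no mesenchymal marker was at a library's lowest value. Tcf21 (−3.7 ± 0.31) and Pdgfra (−3.56 ± 0.35), which mark lung fibroblasts, fell as far as the endothelial genes. Of 6 mesothelial markers, 3 fell and 2 rose. Those that fell were Upk3b (−3.21 ± 0.62), Gpm6a (−3.12 ± 0.43) and Lrrn4 (−2.94 ± 0.65), and Krt19 (2.36 ± 0.21) was among those that rose. The 14 leukocyte markers did not follow: 1 fell, 1 rose and the median was 0.9, with library means of 6.49 to 9.77 for Double libraries, 6.38 to 8.16 for Nkx and 7.27 to 7.57 for WT. Ptprc, the gene of CD45, differed by −0.06 ± 0.6, adjusted p = 0.956. All 9 of the 39 endothelial genes that leukocytes or platelets also express fell, and so did the 22 of the 39 that were not listed as shared with any other cell type. Of 5 listed as also known in epithelium, Slco2a1 and Ramp2 among them, 4 fell in Double against WT. Of 5 listed as also known in mesenchyme, mesothelium or nerve, 4 fell. Prox1, which is in both of these lists, did not pass.

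Of 14 pan-epithelial genes, 11 rose and 2 fell in Double against WT, with library means of 13.27 to 13.5 for Double libraries, 12.87 to 12.95 for Nkx and 12.56 to 12.68 for WT. Epcam, the gene of the protein used for enrichment, rose by 0.75 ± 0.1 (limma, adjusted p = 0.000218). Re-centring each library on these genes moved the median of all genes to −0.71 and that of the endothelial genes to −3.71. It shifts every gene of a library by the same amount, so the distance of −3 between these medians cannot change and is no check. Markers of the alveolar epithelial types went down with the endothelial genes. Of 8 markers of alveolar type 2 (AT2) cells, which make surfactant, 7 fell and 0 rose in Double against WT, with a median of −1.84. Their library means were 15.3 to 16.36 for Double libraries, 17.29 to 17.41 for Nkx and 17.68 to 17.92 for WT. Napsa, a protease that processes surfactant protein, fell by 2.75 ± 0.24 on the log2 scale (adjusted p = 1.3e-05). Of 8 markers of alveolar type 1 (AT1) cells, the thin gas-exchange epithelium, 4 fell and 0 rose, with a median of −1.38. Their library means were 11.34 to 12.15 for Double libraries, 13.17 to 13.88 for Nkx and 12.25 to 13.43 for WT. Rtkn2 (−2.69 ± 0.65, adjusted p = 0.0077) and the caveolin gene Cav1, which endothelium also expresses (−2.28 ± 0.15, adjusted p = 2.5e-06), were the AT1 genes with the largest falls. In Double against Nkx, 5 AT2 and 6 AT1 markers fell, and in Nkx against WT 0 of either list passed in limma, with an unadjusted p under 0.05 for 1 of each. The part of the mesenchymal, alveolar and other epithelial shifts in the endothelial result was not tested.

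**Figure D3:**
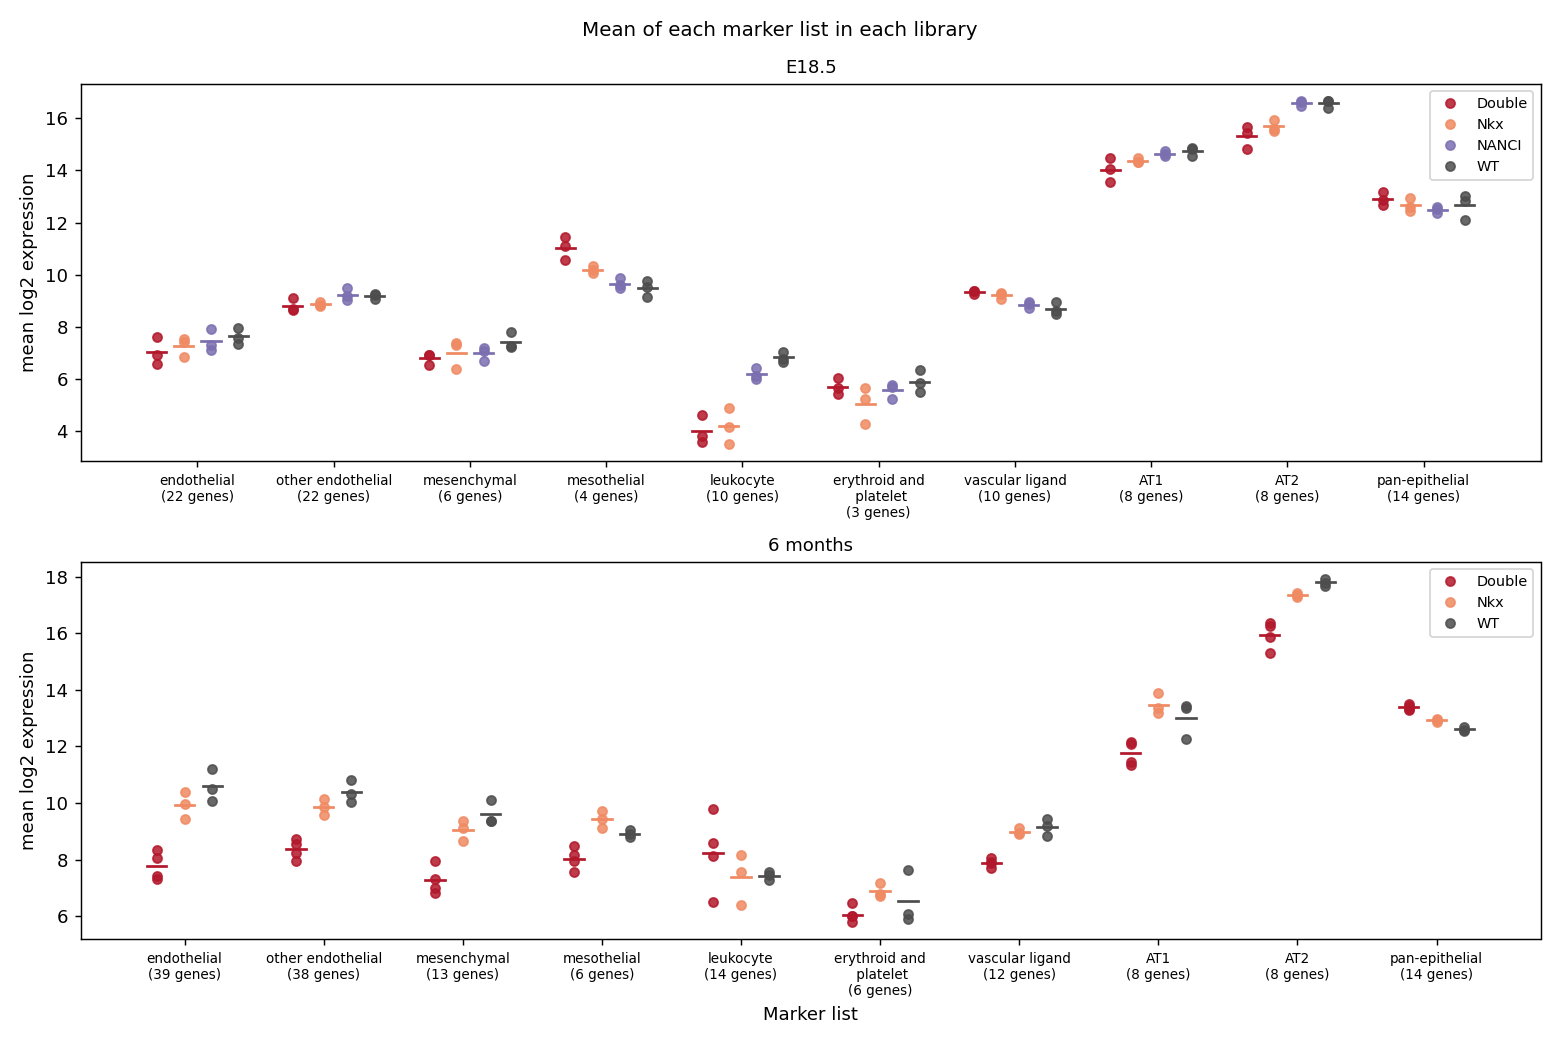
Mean log2 expression (y axis) of each marker list (x axis) in every library, with a bar at each group mean, at E18.5 (top) and 6 months (bottom); the 2 ages have their own scale and their own genes. At 6 months the 4 Double libraries are the lowest in the endothelial, other endothelial, mesenchymal, mesothelial, vascular ligand, AT1 and AT2 lists and the highest in the pan-epithelial list, while the leukocyte and the erythroid and platelet lists overlap between Double and WT, and at E18.5 the leukocyte list is the one with the widest gap between genotypes.

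At E18.5, where 22 of the 39 genes were measured, most did not pass. In Double against WT, 4 of the 22 genes fell in limma, 0 rose and 18 did not pass, while 14.6% of all genes passed, 7.47% as lower and 7.13% as higher. An unadjusted p under 0.05 was reached by 6 of the 22, as by 27.3% of all genes. The median was −0.68, beside 0.02 over all genes, and was −0.41 without Double replicate 3 and −0.37 in the female-pattern libraries alone. The 4 that fell were Esam, Tek, Slco2a1 and Kdr, each with all Double values below all WT values, as 13.3% of all genes had.

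Esam, the adhesion protein gene, measured 9.52, 9.23 and 10.09 in Double libraries, 10.11, 10.31 and 10.01 in Nkx libraries, 10.87, 11.1 and 10.73 in NANCI libraries, and 11.11, 11.62 and 10.64 in WT libraries. All Double and Nkx values lay below all NANCI and WT values. It differed by −1.51 ± 0.25 in Double against WT (limma, adjusted p = 0.00194). Slco2a1, the prostaglandin transporter, measured 10.94, 10.84 and 11.38 in Double libraries, 11.58, 11.5 and 11.14 in Nkx libraries, 11.91, 11.99 and 11.95 in NANCI libraries, and 12.06, 12.42 and 11.63 in WT libraries. Double and Nkx again lay below NANCI and WT. The Double difference was −0.98 ± 0.2, adjusted p = 0.00621. Of the 3 measured genes listed as also known in epithelium, Slco2a1 was the 1 that fell.

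Kdr, the growth factor receptor, measured 11.44, 11.07 and 11.11 in Double libraries, 11.8, 11.65 and 11.52 in Nkx libraries, 12.76, 12.17 and 12.19 in NANCI libraries, and 11.81, 12.17 and 12.28 in WT libraries. The Double values were the lowest 3, the Nkx values came next, and NANCI replicate 1 was the highest of all. The Double difference from WT was −0.88 ± 0.18, adjusted p = 0.00684. Tek, the angiopoietin receptor, measured 6.18, 5.15 and 4.77 in Double libraries, 5.63, 5.78 and 5.33 in Nkx libraries, 6.99, 7.01 and 6.54 in NANCI libraries, and 7.11, 6.38 and 6.84 in WT libraries. The Double and Nkx values were again below those of NANCI and WT. The Double difference was −1.41 ± 0.38, adjusted p = 0.0252, and this call was lost without WT replicate 1, Double replicate 2 or Double replicate 3 (adjusted p = 0.103, 0.0858 and 0.1), and with the Double and WT libraries fitted alone (−1.41, adjusted p = 0.104). With the female-pattern libraries alone, 2 against 2, none of the 4 passed; the differences were −1.75 for Esam, −1.13 for Slco2a1, −0.97 for Kdr and −0.95 for Tek, with adjusted p-values of 0.087, 0.156, 0.12 and 0.569. Re-centred on epithelial genes, the differences of Tek and Kdr were larger, −1.66 and −1.13, but did not pass (adjusted p = 0.0542 and 0.0594), which left 2 of the 22. That re-centring also moved the median of all genes to −0.23.

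Pecam1 measured 7.33, 6.74 and 5.47 in Double libraries, 7.46, 7.79 and 6.32 in Nkx libraries, 6.67, 8 and 6.66 in NANCI libraries, and 7.56, 8.3 and 6.33 in WT libraries at E18.5. The groups overlapped widely, with Double replicate 3 the lowest. The difference of −0.88 ± 0.61 in Double against WT did not pass (limma, adjusted p = 0.398; 95% interval −2.19 to 0.44). Cdh5 measured 7.1, 6.11 and 5.75 in Double libraries, 6.72, 7.25 and 5.49 in Nkx libraries, 6.59, 8 and 6.32 in NANCI libraries, and 7.33, 7.93 and 6.71 in WT libraries. Its groups overlapped in the same way, and −1 ± 0.56 did not pass either (adjusted p = 0.274; interval −2.21 to 0.2).

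Aplnr went the other way. It measured 7.4, 6.6 and 6.1 in Double libraries, 7.29, 6.55 and 6.84 in Nkx libraries, 5.9, 6.52 and 5.14 in NANCI libraries, and 5.6, 6.01 and 5.48 in WT libraries, so every Double and every Nkx value exceeded every WT value, as for 14% and 11.7% of all genes. Neither the Double difference (1 ± 0.42, adjusted p = 0.136) nor the Nkx difference (1.2 ± 0.42, adjusted p = 0.108) passed in limma. Among the others of the 22, the Double differences were −1.13 ± 0.64 for Cd93, −1.13 ± 0.76 for Ptprb and −1.19 ± 0.57 for Lyve1, and near 0 for the arterial genes Dll4 (−0.08 ± 0.37) and Notch4 (−0.02 ± 0.37). Egfl7, Emcn, Podxl, Shank3, Prox1, Ets1, Ramp2 and Flt1 lay between −0.89 and −0.16, Vwf at 0.25 and Ednrb at 0.34, and none passed.

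**Figure D4:**
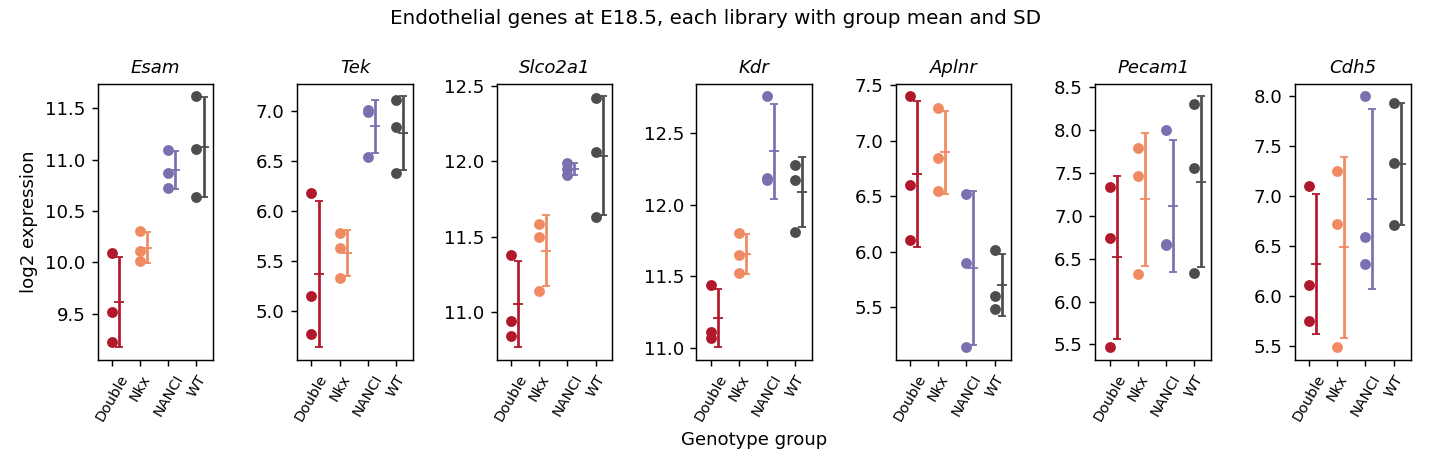
Log2 expression (y axis, a separate scale in each panel) of 7 endothelial genes in every E18.5 library, by genotype (x axis); the bar beside the points gives the group mean ± SD. For Esam, Tek, Slco2a1 and Kdr all Double and Nkx points lie below all NANCI and WT points. For Kdr the gap is small, with a highest Nkx value of 11.8 and a lowest WT value of 11.81. Aplnr is higher in Double and Nkx than in WT, and Pecam1 and Cdh5 overlap.

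At E18.5, Nkx libraries had 1 of the 22 genes lower than WT libraries, Esam (−0.98 ± 0.25, adjusted p = 0.0332), and 0 rose, while 7.32% of all genes passed, 3.65% as lower and 3.67% as higher. The median was −0.35, with −0.13 without WT replicate 2 and −0.17 without Nkx replicate 3, and 5 of the 22 had an unadjusted p under 0.05, as had 21.6% of all genes. The difference of Esam was −1.07 to −0.73 without WT replicate 1, WT replicate 2 or any 1 of the 3 Nkx libraries, but did not pass in these smaller fits (adjusted p = 0.0611 to 0.123), while 2 genes, Esam and Slco2a1, passed without WT replicate 3. Tek (−1.2 ± 0.38, adjusted p = 0.0756), Slco2a1 (−0.62 ± 0.2, adjusted p = 0.0816), Kdr (−0.43 ± 0.18, adjusted p = 0.192) and Ednrb (−1.12 ± 0.8, adjusted p = 0.461) did not pass in limma. These and Esam were the 5 of the 22 with all Nkx values below all WT values, as 10.4% of all genes had. For 1, Aplnr, all Nkx values lay above, as for 11.7% of all genes. Pecam1 (−0.21 ± 0.61, adjusted p = 0.879) and Cdh5 (−0.84 ± 0.56, adjusted p = 0.427) did not pass.

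Double against Nkx at E18.5 gave 0 of 22 genes in limma, and 1 gene of all 13750 (0.00727%) passed. The median was −0.26, with −0.14 without Double replicate 3 and −0.55 without Double replicate 1. Kdr was the sole one of the 22 with an unadjusted p under 0.05 (−0.45 ± 0.18, adjusted p = 1), beside 4.07% of all genes. Esam (−0.53 ± 0.25), Slco2a1 (−0.36 ± 0.2), Podxl (−0.54 ± 0.34), Pecam1 (−0.67 ± 0.61) and Cdh5 (−0.17 ± 0.56) were lower in the mean without passing, and Ednrb (1.46 ± 0.8) was higher in the mean without passing.

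NANCI against WT gave 0 of 22 genes at the adjusted threshold in limma and 0 of 22 at an unadjusted p under 0.05, where all genes gave 0% and 3.1%. The median was −0.16, and its sign was not stable: it was 0.2 with the sex pattern as a covariate and 0.07 without WT replicate 2, and −0.33 without NANCI replicate 2. Kdr differed by 0.29 ± 0.18, Ets1 by 0.28 ± 0.21, Podxl by −0.4 ± 0.34, Emcn by −0.69 ± 0.61 and Ednrb by −1.23 ± 0.8. Pecam1 differed by −0.28 ± 0.61 (95% interval −1.6 to 1.03) and Cdh5 by −0.36 ± 0.56 (interval −1.56 to 0.85). These intervals span falls of more than 1 log2 unit as well as rises, so the 3 libraries a group do not settle the direction.

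**Figure D5:**
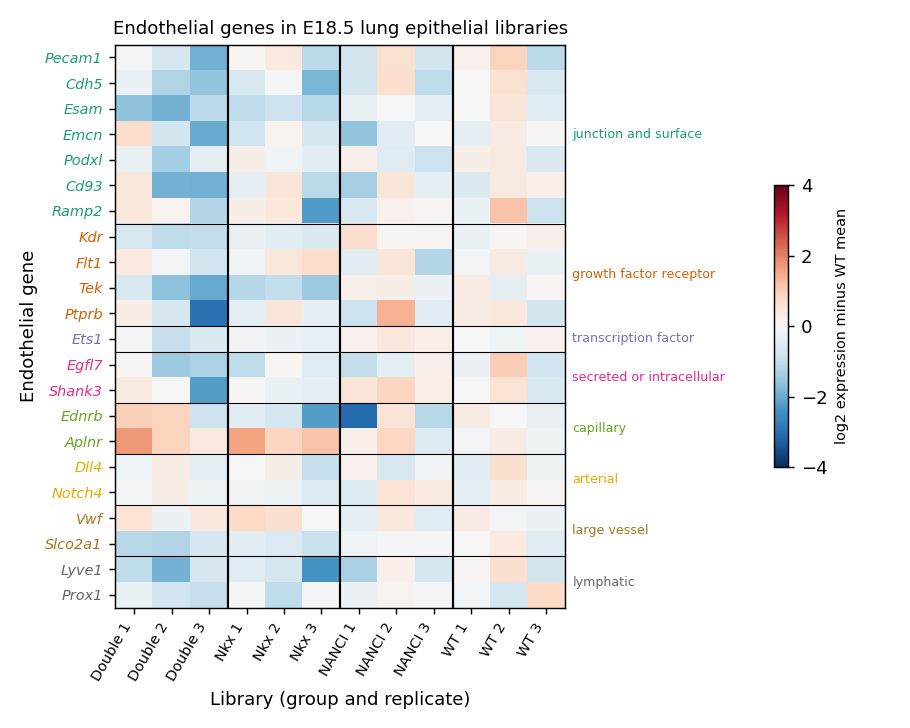
Log2 expression of the 22 endothelial genes measured at E18.5 (rows, grouped by role) in each library (columns), drawn as the difference from the WT mean of that gene. Columns do not separate by genotype as a block: Esam, Tek and Slco2a1 are blue in Double and Nkx, Aplnr is red there, and Double replicate 3 is lowest of its group for 14 of 22 rows.

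The mean of the 22 genes at E18.5 was 7.61, 6.92 and 6.54 in Double, 7.4, 7.53 and 6.83 in Nkx, 7.11, 7.89 and 7.29 in NANCI, and 7.57, 7.96 and 7.32 in WT libraries, so all groups overlapped. Subtracting the mean of the other endothelial genes left the median SD within groups at 0.55, and it was smaller for 14 of the 22 genes. The 6-month values rest on 39 genes and another enrichment, so the 2 ages are not compared in this. Of the 4 genes that fell in Double against WT, the SD grew for Esam (0.35 to 0.5), Kdr (0.24 to 0.49) and Slco2a1 (0.27 to 0.45). For Tek it went from 0.44 to 0.42. The SD fell for Pecam1 (0.88 to 0.53) and Cdh5 (0.79 to 0.44). Subtracting a mean can widen a gene of small SD even when that gene moves with the mean. The wider SD of Esam, Kdr and Slco2a1 therefore does not show whether they followed the other endothelial genes between libraries. Single libraries still led: Double replicate 1 was highest of its group for 17 genes, NANCI replicate 2 for 17 and WT replicate 2 for 16.

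Of another 22 endothelial genes measured at E18.5, 4 fell and 3 rose in Double against WT. The water channel gene Aqp1, which endothelium and other lung cells express, fell by far the most (−3.03 ± 0.31, adjusted p = 8.05e-05), and fell in Nkx against WT too (−3.53 ± 0.31, adjusted p = 8.84e-05). Nrp1, a co-receptor of Kdr that other cells also carry, fell in Double (−1.48 ± 0.19, adjusted p = 0.000361) and in Nkx (−1.05 ± 0.19, adjusted p = 0.0057). Nostrin, a partner of Nos3, rose in Double (2.42 ± 0.45, adjusted p = 0.00364), and the kinase gene Bmx fell (−1.57 ± 0.43, adjusted p = 0.0292). Of 10 vascular ligand genes, 2 rose in Double against WT, Sema3c (1.75 ± 0.25, adjusted p = 0.000652) and Edn1, the endothelin ligand of Ednrb (1.47 ± 0.3, adjusted p = 0.00636). Vegfa differed by 0 ± 0.17.

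Leukocyte markers moved more than endothelial ones at E18.5. Of 10, 8 fell in Double against WT, with a median of −2.71, and 5 fell in Nkx against WT. Their mean per library was 3.57 to 4.6 for Double libraries, 3.48 to 4.88 for Nkx, 5.99 to 6.4 for NANCI and 6.64 to 7.03 for WT, and Ptprc fell in Double (−2.66 ± 0.73, adjusted p = 0.0292). Double and Nkx libraries held up to 3 of these 10 markers at the library's lowest value, and NANCI and WT libraries held 0. Of 6 mesenchymal markers, 2 fell and 2 rose in Double against WT, and of 4 mesothelial markers 2 rose. All 8 AT2 markers fell in Double against WT, with a median of −1.21 and library means of 14.83 to 15.68 for Double libraries, 15.53 to 15.96 for Nkx, 16.47 to 16.66 for NANCI and 16.39 to 16.68 for WT. Of the 8 AT1 markers, 3 fell and 0 rose, Rtkn2 (−2.44 ± 0.37, adjusted p = 0.00111), Pdpn (−1.1 ± 0.24, adjusted p = 0.00935) and Cav1 (−0.96 ± 0.2, adjusted p = 0.00685). In Nkx against WT, 2 AT2 and 3 AT1 markers fell. The part of the leukocyte and alveolar shifts in the 4 endothelial calls was not tested. Epcam rose by 0.58 ± 0.18 (limma, adjusted p = 0.0484).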

How the data were processed

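The deposited tables hold 1 log2 value per Ensembl gene ID and library, quantile-normalized within an age as far as the values show: library medians are nearly equal. The submitters' processing notes name STAR, limma and mm9, a mouse build; versions and roles, and any counting method or gene filter, are not given in the sources used. Gene symbols were matched by gene ID for 99.2% of E18.5 and 96.2% of 6-month IDs, and coordinates are GRCm38. Quantile normalization takes out any change common to most genes, and values of low genes are limited by unknown read depth.

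Groups came from the labels. One limma 3.58.1 model per age (R 4.3.3) was fitted over all libraries and genes, with genotype group as its only term and eBayes with trend, for 7 comparisons. P-values were adjusted by the Benjamini-Hochberg method over all genes, with a threshold of 0.05, and intervals are at 95%. The code was tested on simulated data. The endothelial genes, the other gene lists and the comparisons were chosen with earlier results of these data known, and comparisons at one age share libraries. The difference and its SE were given for passing genes, up to the 12 largest changes per comparison, or the 5 smallest p-values where fewer than 5 passed, and for Pecam1, Cdh5, Kdr and Cldn5. Of other lists, they were given for up to 4 passing genes, Ptprc and Epcam, with further endothelial genes and Vegfa added to account for every member and its ligand. Library values were given for some of these genes only, and for some outside this choice.

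Same-numbered E18.5 Double and Nkx libraries deviated together over all genes (Pearson r of 0.298, 0.504 and 0.18). The labels give no pairing, and these libraries also match in sex pattern number by number, so pairing and shared sex cannot be told apart. No other comparison had a positive r at every number, though E18.5 Nkx and Double against WT reached 0.472 and 0.454 at replicate 2. The E18.5 Double against Nkx results above are unpaired, and with the replicate block 0 of the 22 genes fell. Alternatives were the trend, the libraries fitted, a mean of at least 5, 2 re-centrings, sex pattern as a covariate, the replicate block, each library left out and, added after seeing the data, libraries of 1 sex pattern.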

Additional observations from a re-analysis of the deposited data

Results flagged for a closer look

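Mmrn1 in 6-month Double replicate 3 measured 2.85, while the other Double libraries measured 4.63, 4.95 and 4.67, the 3 Nkx libraries 6.91 to 7.6 and the 3 WT libraries 6.2 to 6.87. Its gap to the nearest Double library was 0.848 of the group's whole range, above Dixon's 95% critical value for 4 libraries. It was the 1 such value among 39 endothelial genes tested, where chance gives about 1 in 20, and 2.85 is the lowest value of that library.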

How the results depend on the processing

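Over all alternatives, 36 to 38 endothelial genes fell in 6-month Double against WT and 32 to 38 in Double against Nkx, and 0 rose in any comparison. The Double against WT median of −2.93 became −3.71 when re-centred on pan-epithelial genes, −3.54 with sex pattern as a covariate and −3.63 in female-pattern libraries alone. The re-centring also moved the median of all genes, from 0.06 to −0.71. In 6-month Nkx against WT, where 0 fell, 5 fell when re-centred on pan-epithelial genes and 1 with sex pattern as a covariate, and 0 to 1 with each library left out. That re-centring moved the median of all genes to −0.31. In E18.5 Double against WT, where 4 fell, 2 fell when re-centred on pan-epithelial genes, 0 in female-pattern libraries alone, 3 with both groups alone, where Tek did not pass, and 3 to 6 with each library left out. In E18.5 Nkx against WT, where 1 fell, 0 fell without the trend, with both groups alone, re-centred on pan-epithelial genes or in female-pattern libraries alone, and 0 to 2 with each library left out. With each library left out the median was −0.96 to −0.4 in 6-month Nkx against WT, −0.96 to −0.41 in E18.5 Double against WT and −0.52 to −0.13 in E18.5 Nkx against WT. Of differences that did not pass, some turned in sign: in NANCI against WT, the median to 0.2 with sex pattern as a covariate and 0.07 without WT replicate 2, Pecam1 to 0.3 and Cdh5 to 0.16 with sex pattern as a covariate and Pecam1 to 0.17 without WT replicate 2 (−0.82 to 0.17 over libraries left out); in E18.5 Nkx against WT, Pecam1 to 0.25 without WT replicate 2, 0.23 without Nkx replicate 3 (−0.74 to 0.25 over libraries left out) and 0.31 in female-pattern libraries; in E18.5 Double against Nkx, Cdh5 to 0.22 without Nkx replicate 2 and 0.12 without Double replicate 3 (−0.67 to 0.22 over libraries left out). With the replicate number as a block, 34 genes fell in 6-month Double against Nkx and 38 in Double against WT, with Car4, Fli1 and Dll4 losing the call against Nkx (−1.84, −1.47 and −1.04, adjusted p = 0.073, 0.0729 and 0.079); over the 7 comparisons the block changed no other call of an endothelial gene. The cause of these changes was not tested, and some of these fits had fewer libraries. Read depth is unknown, so it cannot be said how much of the spread of low genes is counting error.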
